A study of Drosophila melanogaster with 12 samples.

Results

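A set of 133 transcripts, of 16637 on the arrays, had higher expression values in polygamy females than in monogamy females while the mean values of polygamy and monogamy males lay close together. The flies were whole virgin Drosophila melanogaster aged 4 days from 6 separately evolved populations. The profiles form 4 groups, each with 1 array from each of 3 populations: polygamy females, monogamy females, polygamy males and monogamy males. Polygamy and monogamy had each been imposed for 65 generations, and all groups shared the genetic background that the labels call IV and standard cornmeal medium. Labels name no allele, transgene or chemical agent, and they do not say how many flies were pooled for an RNA sample. No group was an unevolved control, so a difference between the regimes does not show which of them departed from the ancestor.

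Polygamy leaves room for rivalry among males and for choice of mates, and enforced monogamy removes both, so lines evolved under each are used to ask which traits answer to sexual selection. In a whole female fly the ovaries give much of the RNA, and in a whole male fly the testes and accessory glands contribute many transcripts that females make little of. In such whole-body RNA, fewer cells of a type and less RNA per cell cannot be told apart.

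The members were chosen from these same values, by 4 conditions. Each value is a log2 expression value made with RMA, which summarises the probes of a transcript after normalizing arrays, so a difference of 1 is a factor of 2. All 3 polygamy female values lay above all 3 monogamy female values in 2498 transcripts (15.0%). Of these, 1145 had a polygamy minus monogamy mean difference of at least 1.5, a factor of 2.83. The condition on males, an absolute monogamy minus polygamy mean difference under 0.3, left 201 of them. It set aside 928 transcripts in which polygamy males were also higher by at least 0.3, and 16 in which monogamy males were. A median of at least 6 over the 6 females then left the 133 members and set aside 68. Because these conditions used them, the differences between the regimes are descriptions of the members and are given with no test.

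The conditions cut through continuous distributions. The smallest female difference among the members was 1.5008, and the largest just outside was 1.4999. The member nearest the male limit stood at 0.2999 and the nearest transcript beyond it at 0.3025. For the female median the nearest values were 6.01 inside and 5.91 outside.

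One member has a gene symbol. RefSeq's table of genes for assembly Release 6 gave a symbol for 44 of the 16637 identifiers, and FBtr0082871 of rdx was the only one among the members. The remaining 132 members are known here by FlyBase transcript identifiers alone. Of 176 genes in 11 lists of tissue markers and pathways (yolk proteins, eggshell, germline, testis, accessory gland and others), 0 were paired with an identifier, so no list could be counted and the sex and tissue labels could not be checked against named markers. Sequences of the members are not shown, since no transcript, promoter or protein sequence was used here. No transcripts of the table shared all 12 values exactly. In 3 pairs of members, however, the values lay within 0.5 of each other on every array, so that the 133 are not all separate signals. These pairs, singled out after their values were seen, were FBtr0082871 of rdx with FBtr0082872 (largest difference 0.11), FBtr0085926 with FBtr0091895 (0.17) and FBtr0078900 with FBtr0100499 (0.28).

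The level of polygamy female 3 bears on all of the results. It correlated with the remaining females at a mean of 0.733, where each of those had a mean of 0.894 to 0.924, and its 5th percentile was 5.42, against 4.30 to 4.43. Results that rest on it are given with and without it.

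In females, the members stood in the lower part of the arrays under monogamy and nearer the middle under polygamy. Their median was 8.40, 8.32 and 9.76 in polygamy females 1, 2 and 3, against 6.32, 6.65 and 6.68 in monogamy females 1, 2 and 3. In polygamy females, 33.5%, 32.8% and 48.4% of all transcripts lay below the median of the members, and in monogamy females 18.2%, 21.3% and 21.9%. The polygamy means of single members ran from 7.07 to 13.74 and the monogamy means from 4.81 to 12.06. The conditions place every polygamy female value of a member above 6, so none could lie below the 5th percentile of its array. In monogamy females 1 member value did. Below the 25th percentile lay 94, 80 and 77 members in monogamy females 1, 2 and 3, and 23, 35 and 17 in polygamy females 1, 2 and 3. In males, 2, 8 and 2 members lay below the 5th percentile in polygamy males 1, 2 and 3. In monogamy males 1, 2 and 3 it was 7, 5 and 3.

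The female difference of the members had a median of 1.96, quartiles of 1.68 and 2.31, and a highest value of 3.93. The gap between the lowest polygamy and the highest monogamy value was often narrower than the difference of the means. It had a median of 0.69, was under 0.5 in 40 members and reached 1 in 31. The arrays of a regime were not alike in the members. The highest of the polygamy females was number 3 in 86 members (64.7%), number 1 in 41 and number 2 in 6. Polygamy female 2 was the lowest of its group in 79 members, and monogamy female 1 was the lowest monogamy female in 79.

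Each polygamy female exceeded the monogamy mean by its own amount. The median excess of the members was 1.89, 1.39 and 2.77 in polygamy females 1, 2 and 3. Over the 2571 transcripts whose monogamy mean lay within the quartiles of that of the members, the medians were -0.15, -0.17 and 1.29 in the same 3 arrays. Transcripts at this level were therefore raised in general in polygamy female 3 and not in polygamy females 1 and 2. How much of the members' excess in polygamy female 3 goes with that general rise was not tested.

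Without polygamy female 3, the median difference of the members was 1.61, with a range of 0.64 to 3.45. It stayed at 1.5 or more in 75 of the 133 members (56.4%) and was under 1 in 16. When the conditions were applied to polygamy females 1 and 2 and the 3 monogamy females, 115 transcripts were chosen, of which 65 were members. Of the 68 members lost, 58 fell short in the female difference and 10 in the female median alone. Among the 50 transcripts gained, polygamy female 3 failed to exceed every monogamy female in 41 and lay below all of them in 13. The number chosen moved more without polygamy female 1, to 224 with 102 members among them, and without polygamy female 2, to 221 with 117 members among them. Membership therefore depended on single arrays, and fewest members were kept without polygamy female 3.

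**Figure D1:**
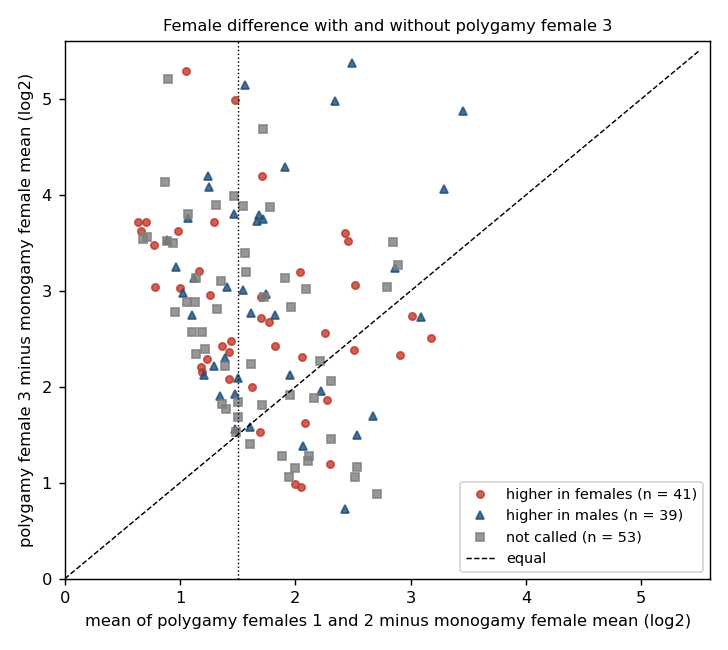
Excess of polygamy female 3 over the monogamy female mean (vertical axis, log2) against that of polygamy females 1 and 2 averaged (horizontal axis, log2), with 1 point per member transcript. Shape and colour give the call between females and males, the dashed line marks equal excess and the dotted line the threshold of 1.5; 75 of the 133 members lie at or beyond the dotted line.

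The sex difference was not part of the conditions, apart from the minimum female level, and could be tested. The female minus male difference, averaged over the regimes, is independent in the fit of the regime mean differences that helped choose the members. The separation of single female values also bears on the spread within groups, which limma sets the difference against. The calls are therefore not wholly free of the choice. A transcript was called when limma gave an adjusted p under 0.05 over all 16637 transcripts and the absolute log2 difference was at least 1. Among the members, 41 (30.8%) were higher in females, 39 (29.3%) were higher in males and 53 (39.8%) were not called. Over all transcripts, 26.1% were called higher in females and 16.4% higher in males, 42.4% in all. Over the 14077 transcripts that met the minimum female level, the shares were 28.1% and 11.6%. The share called higher in females was near these backgrounds, and the share called higher in males lay above both. Neither background was limited by the condition on males, which the members had to meet. The shares themselves were not tested. The median female minus male difference was 0.49 in the members and 0.34 over all transcripts.

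**Figure D2:**
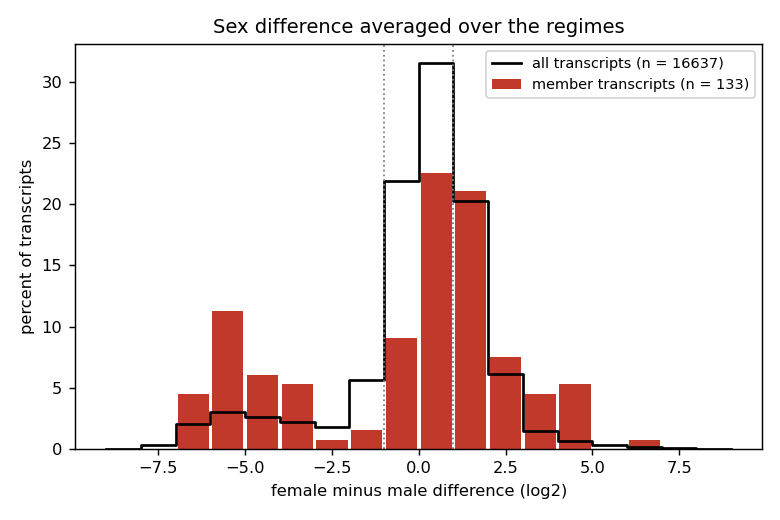
Distribution of the female minus male log2 difference, averaged over the regimes, in bins 1 wide, as percent of the 133 members (bars) and of all 16637 transcripts (line). Dotted lines mark the size threshold of 1; 11.3% of the members and 3.01% of all transcripts fall between -6 and -5.

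Most of the 39 members called higher in males were abundant and steady in males and dim in females. The mean of the males was over 11 in 35 of them (range 8.82 to 13.42), the mean of the females under 8 in 31 (6.36 to 10.86), and the range over the males under 1 in 33 (0.18 to 2.10). Their medians were 7.70, 8.37 and 9.30 in polygamy females 1, 2 and 3 and 6.15, 6.05 and 6.28 in monogamy females 1, 2 and 3. In polygamy males 1, 2 and 3 they were 12.85, 12.70 and 12.93, and in monogamy males 1, 2 and 3 they were 12.45, 12.83 and 12.88. The median female minus male difference was -5.38, with a range of -6.70 to -1.30. Female and male values did not overlap in 37 of the 39. Over all transcripts 34.0% did not overlap, and of the 1637 called higher in males at the minimum female level 77.1% did not, so that most of this goes with the call itself. The range over the 6 males had a median of 0.64 in these members, against 1.47 over all members. It was 0.71 over the 8473 transcripts that met the condition on males and the minimum female level. Steadiness in males was therefore near that background and not particular to these members.

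In these 39 members polygamy female 2 had a higher median excess than polygamy female 1, and in the other members a lower one. Their median excess over the monogamy mean was 1.61, 1.76 and 2.98 in polygamy females 1, 2 and 3. In the 41 members higher in females the same values were 2.04, 1.29 and 2.68, and in the 53 members not called 2.01, 1.28 and 2.78. Among all transcripts at the minimum female level, the medians were -0.17, 0.02 and 0.28 in the 1637 called higher in males. They were -0.16, -0.09 and 0.13 in the 3955 called higher in females and -0.20, -0.08 and -0.44 in the 8485 not called, so polygamy female 2 lay above polygamy female 1 in each of these backgrounds. This order was not tested, since every value in it entered the choice of members.

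FBtr0112510 had the largest female difference without polygamy female 3. It stood at 9.48, 9.22 and 10.77 in polygamy females 1, 2 and 3, against 5.11, 6.31 and 6.28 in monogamy females 1, 2 and 3. Males held 12.69, 12.85 and 12.93 under polygamy and 12.58, 12.83 and 12.69 under monogamy. All 6 male values lay within 0.35 of each other, while the regimes lay 2.91 apart at their nearest in females. Its female difference was 3.93, a factor of 15.2, and 3.45 without polygamy female 3. It was lower in females than in males by a difference of -4.90 (SE 0.30, limma adjusted p = 2.69e-07), between 7.86 ± 2.26 and 12.76 ± 0.13 (SD, n = 6 each), with every female below every male.

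FBtr0088634 came next without polygamy female 3, at 9.95, 7.35 and 9.41 in polygamy females and 4.21, 6.43 and 5.43 in monogamy females. Its males ran from 10.74 to 11.25. The females of each regime were spread over more than 2 log2 units, and the males of both over 0.51. The female difference was 3.55, and 3.29 without polygamy female 3. The female minus male difference was -3.94 (SE 0.47, limma adjusted p = 4.13e-05), with 7.13 ± 2.24 in females and 11.07 ± 0.19 in males (SD, n = 6 each).

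The members with the most negative sex differences and no symbol were FBtr0085599 and FBtr0080802. FBtr0085599 stood at 7.41, 9.13 and 7.91 in polygamy females, 5.61, 4.70 and 5.24 in monogamy females and 12.89 to 13.52 in males. Its polygamy females were higher by 2.97, and by 3.09 without polygamy female 3. The female minus male difference was -6.70 (SE 0.29, limma adjusted p = 2.57e-08), a factor of 104 in favour of males, and every female lay below every male.

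FBtr0080802 stood at 6.61, 8.63 and 7.59 in polygamy females, 6.06, 5.65 and 6.33 in monogamy females and 12.56 to 13.72 in males. Polygamy female 2 was the highest female in both of these transcripts. For FBtr0080802 the female difference was 1.60. Leaving out polygamy female 2 lowered it to 1.09, and leaving out polygamy female 3 gave 1.61. The female minus male difference was -6.46 (SE 0.34, limma adjusted p = 7.86e-08).

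The 41 members called higher in females differed from the 39 called higher in males in level and in spread among males. Their range over the 6 males had a median of 1.45, against 0.64. Their medians were 9.67, 8.87 and 10.68 in polygamy females 1, 2 and 3, and 6.94, 8.07 and 7.91 in monogamy females 1, 2 and 3. Male medians lay between 5.54 and 6.23, below the 25th percentile of every male array (7.42 to 7.70). Only 16 of the 41 calls remained without the dimmest 25% of transcripts, an alternative that tests fewer members. The median female minus male difference was 2.43, with a range of 1.27 to 6.11. Female and male values did not overlap in 21 of the 41. Of the 3955 transcripts called higher in females at the minimum female level, 60.7% did not overlap, so separation was no more frequent in these members. The highest polygamy female was polygamy female 3 in 26 of these members, polygamy female 1 in 15 and polygamy female 2 in 0. Among the transcripts called higher in females at the minimum female level, these shares were 45.9%, 20.8% and 33.2%.

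FBtr0077013 had the largest of these sex differences. It stood at 12.99, 12.37 and 13.59 in polygamy females, 10.55, 10.76 and 11.41 in monogamy females and 5.17 to 6.68 in males. The regimes lay 0.96 apart at their nearest in females, and the sexes 3.87 apart. The female difference was 2.07, and 1.77 without polygamy female 3. The female minus male difference was 6.11 (SE 0.30, limma adjusted p = 5.54e-08), with 11.94 ± 1.23 in females and 5.84 ± 0.50 in males (SD, n = 6 each), a factor of 69.0.

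FBtr0085956 followed, with 12.71, 10.41 and 11.28 in polygamy females, 7.90, 8.62 and 9.12 in monogamy females and 4.23 to 5.68 in males. Its polygamy females were spread over a wider range than its monogamy females and stayed above them. The female difference was 2.92, and 3.01 without polygamy female 3. The female minus male difference was 4.92 (SE 0.44, limma adjusted p = 4.61e-06).

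The transcript of rdx lay above the array median in all 6 females and in 4 of the 6 males, and below it in polygamy male 2 and monogamy male 1. The gene encodes an adaptor that brings proteins to a Cullin 3 ubiquitin ligase, and in flies it is known for promoting the degradation of the Hedgehog pathway's transcription factor Ci. It stood at 14.05, 13.97 and 13.01 in polygamy females 1, 2 and 3, against 10.68, 12.65 and 12.71 in monogamy females 1, 2 and 3. Monogamy female 1 lay about 2 log2 units below the other monogamy females, and the nearest values of the regimes were 0.29 apart. The female difference was 1.66, a factor of 3.16. It was 1.99 without polygamy female 3 and 0.99 without monogamy female 1.

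In males, rdx stood at 11.60, 9.05 and 11.54 in polygamy males 1, 2 and 3, and at 9.58, 10.38 and 11.96 in monogamy males 1, 2 and 3. The means of the regimes were 10.73 ± 1.45 in polygamy males and 10.64 ± 1.21 in monogamy males (SD, n = 3 each). These means were close, but single male arrays differed by up to 2.91. Single female arrays, from 10.68 in monogamy female 1 to 14.05 in polygamy female 1, spanned a wider range. Across the regimes, rdx was higher in females by 2.16 (SE 0.59, limma adjusted p = 0.00979), with 12.85 ± 1.22 in females and 10.68 ± 1.20 in males (SD, n = 6 each). Female and male values overlapped.

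**Figure D3:**
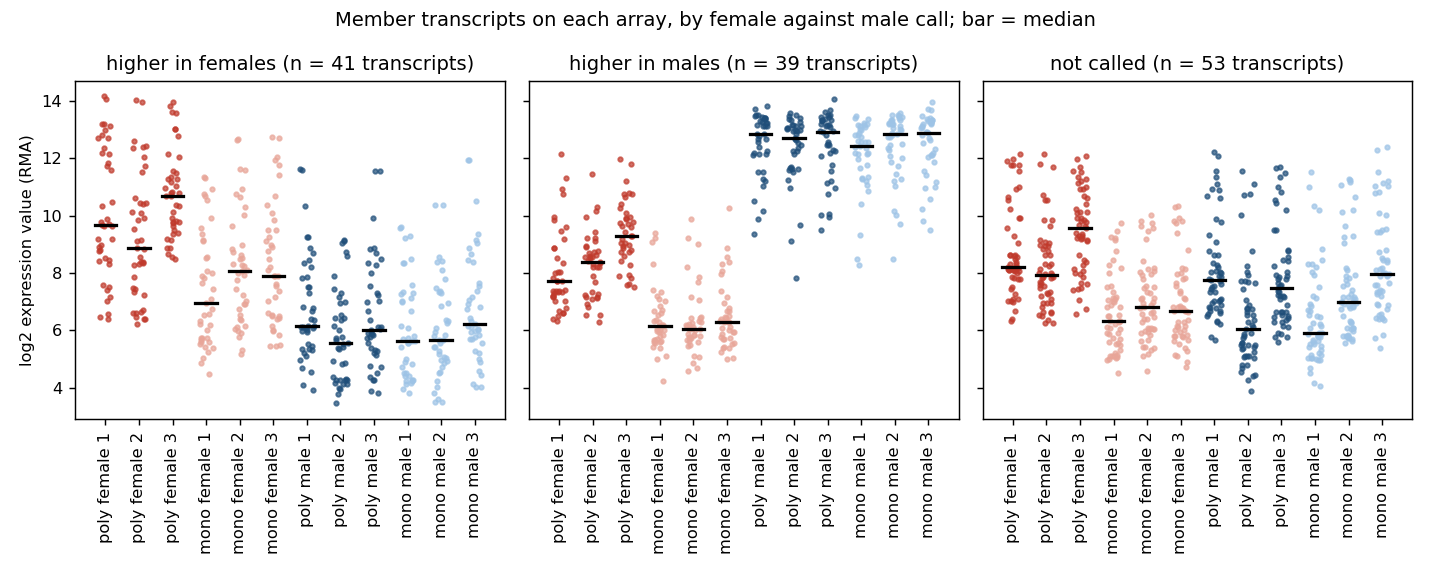
Log2 expression value (vertical axis) of the member transcripts on each of the 12 arrays (horizontal axis), in panels by the limma call between females and males; each point is a transcript and each bar the median of a panel. The 39 members higher in males sit at medians of 12.45 to 12.93 on the male arrays, and the 53 not called shift between male arrays, with medians of 5.91 to 7.97.

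The spread of rdx among males was shared by many members. The condition on males bounded the difference of the 2 male means and did not limit the spread within them. The range over the 6 males had a median of 1.47 in the members, with extremes of 0.18 and 4.60, and of 0.99 over all transcripts. It was at least 2 in 40 members (30.1%), against 14.5% of all transcripts and 2.92% of the 8473 transcripts that met the male and level conditions. The median within-group SD of the members was 0.67 in males and 0.79 in females, against 0.37 and 0.56 over all transcripts. For these 40 members, close male means do not mean a steady male level, and a regime difference limited to females describes their group means, not their single arrays.

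An order of the males recurred in many members. The 3 lowest males were polygamy male 2, monogamy male 1 and monogamy male 2 in 74 members (55.6%). The next most common set of 3 lowest males was found in 12. Over all transcripts 23.0% had those 3 males lowest, and over the transcripts that met the male and level conditions 15.1%. The same 3 males were the highest in 9 members (6.77%), in 33.4% of all transcripts and in 42.5% of those that met the male and level conditions. The same split of the male arrays, in one direction or the other, ran through 56.4% of all transcripts, and both regimes have arrays on each side of it. Those 3 males were lowest in 22 of the 41 members higher in females, 12 of the 39 higher in males and 40 of the 53 not called, and in 34 of the 40 members with a male range of at least 2.

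In those 40 members, the median deviation from the mean of the 6 males was 0.86, -1.31 and 0.54 in polygamy males 1, 2 and 3 and -1.18, -0.10 and 1.12 in monogamy males 1, 2 and 3. Over all transcripts the same medians were between -0.08 and 0.08. Those wide-ranging members were mostly ones without a sex call. A male range of at least 2 was found in 30 of the 53 not called, 9 of the 41 higher in females and 1 of the 39 higher in males. Such a range enlarges the spread within groups that limma sets the sex difference against, so range and call are not separate traits. The shares by call over all transcripts were not computed. In the 53 not called, medians were 7.74, 6.04 and 7.46 in polygamy males and 5.91, 6.99 and 7.97 in monogamy males. Their females had medians of 8.22, 7.93 and 9.56 under polygamy and 6.32, 6.81 and 6.68 under monogamy, so the highest male medians reached into the range of the female medians.

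**Figure D4:**
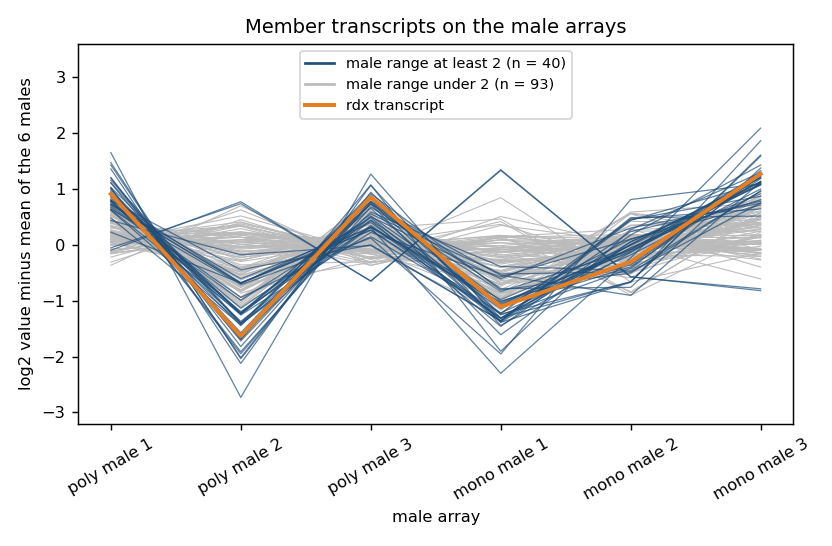
Deviation of each member from its mean over the 6 males (vertical axis, log2) on the 6 male arrays (horizontal axis); lines join the values of a transcript and do not stand for an order of arrays. The 40 members with a range of at least 2 are dark, and most of them dip in polygamy male 2 and monogamy male 1 and peak in monogamy male 3, as the rdx transcript does.

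The transcripts chosen by the mirrored conditions, higher in monogamy females and close between the male means, numbered 213. In 165 of them (77.5%) polygamy male 2 and monogamy males 1 and 2 were the 3 highest males, against 33.4% of all transcripts and 42.5% of those that met the male and level conditions, and in 0 they were the 3 lowest. Of those 213, 9.86% had a male range of at least 2. These counts are descriptions, and the difference from the members was not tested.

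Male and female arrays with the same regime and number in their titles were taken as 1 population, and the members were compared within populations. Over the 133 members, deviations from the group means correlated between female and male at 0.45 in polygamy population 1, 0.04 in population 2 and -0.23 in population 3. In monogamy populations 1, 2 and 3 they correlated at 0.07, -0.18 and 0.06. The points share 2 arrays in each case and the members were chosen on the female values. Over all 16637 transcripts the values were 0.09, 0.07 and -0.18 in polygamy populations 1, 2 and 3, and 0.53, -0.07 and 0.40 in monogamy populations 1, 2 and 3. Neither set had a common sign.

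The members did not form a single profile. Over the 12 arrays, the 8778 pairs of members had a median correlation of 0.51, with 642 pairs above 0.95 and 2630 below 0. Over the 6 male arrays alone the median was 0.58, with 906 pairs above 0.95 and 2647 below 0.

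**Figure D5:**
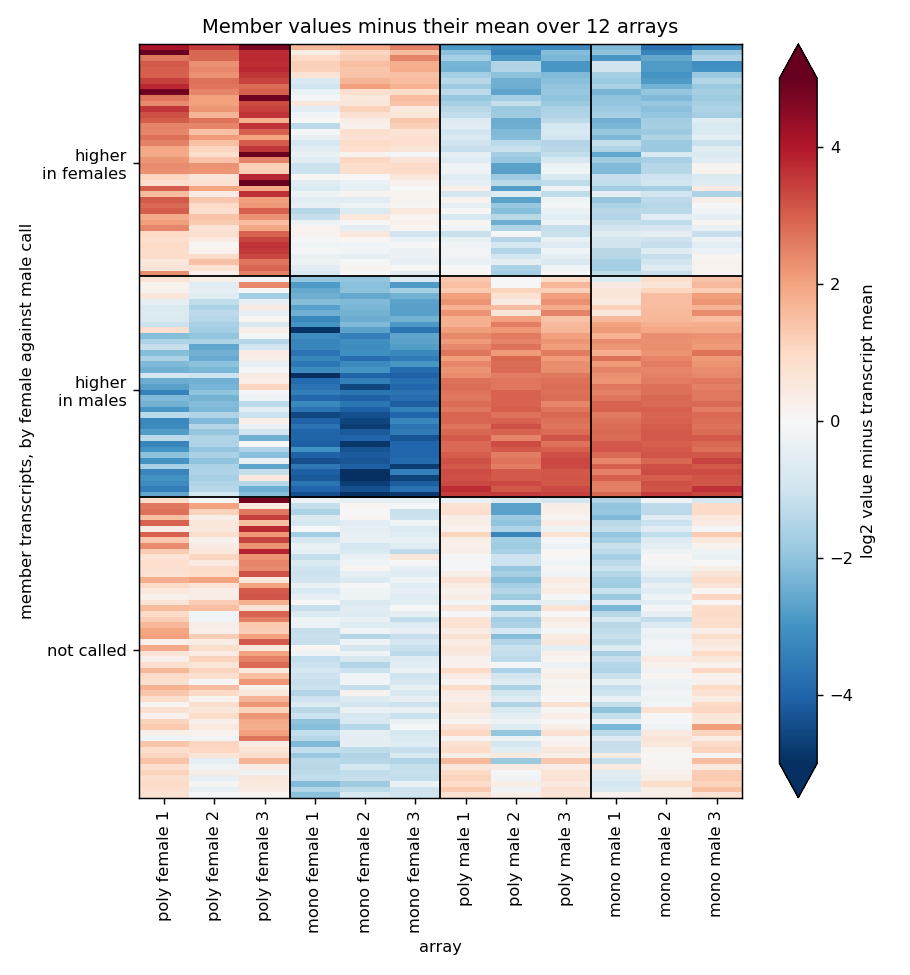
Log2 values of the 133 members (rows) minus their mean over the 12 arrays (columns), grouped by the call between females and males and sorted by the female minus male difference. Red marks values above and blue below the mean; in 37 of the 39 members higher in males every polygamy female lies below every male array, and in all 39 above every monogamy female.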

How the data were processed

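Whole-fly RNA was hybridised, labelled with Cy3, to 12 single-colour NimbleGen arrays. Per the labels and the submitters' processing notes, the deposited values are RMA log2 expression values per FlyBase transcript identifier. Not given in the sources used here are the version of the RMA software, the annotation release and which arrays were normalized jointly. Arrays have no read depth: their number limits the precision. Samples were grouped by title. A male and a female sample with the same regime and number in their titles were taken as 1 population. Nothing says that populations were sampled more than once, so p-values cover differences between populations and between single arrays alike.

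The members and lists were chosen with earlier results of these data known. The conditions that define the members were applied to the deposited values without filter or further normalization. Sex was tested with limma 3.58.1 in R 4.3.3 (lmFit and eBayes, 4 group means over 12 arrays, female minus male averaged over regimes), with Benjamini-Hochberg adjustment over 16637 transcripts, after a test on simulated data. Transcripts were named if they had a gene symbol. Of those without one, named were the 2 with the largest sex difference in each direction that passed and did not overlap, and the 2 with the largest female difference without polygamy female 3. Alternatives were a block for population, as a fixed term or through duplicateCorrelation (statmod 1.5.0, consensus correlation 0.08), other normalizations, raising dim values to the 5th percentile, another eBayes prior, leaving out the dimmest 25% of transcripts, other thresholds and leaving out each array in turn. Head RNA-Seq was not analysed here.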

Additional observations from a re-analysis of the deposited data

Results flagged for a closer look

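For the 7 named transcripts and the median of the members, the 6 females and the 6 males were each searched for an array far from the rest. The measure was the distance from the extreme value to its neighbour as a share of the range, held against Dixon's 95% limit for 6 values. This made 16 sets, of which 1, of males, passed the limit. About 1 in 20 sets of freely drawn values would do so by chance, and that rate does not hold for the female sets. There the conditions hold the regimes apart, so part of each range is the gap between them and a far array is harder to flag. The lack of flags in females therefore does not show that the female arrays were alike. FBtr0085599 stood at 12.89 in monogamy male 1, and at 13.37 to 13.52 in the other males.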

How the results depend on the processing

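The number of members was 133, and lay between 115 and 224 when each female array was left out in turn: 224 without polygamy female 1, 221 without polygamy female 2 and 115 without polygamy female 3, of which 102, 117 and 65 were members. It was 242 and 62 with a female difference of at least 1 and 2, 253 with a male limit of 0.5 and 80 with a female median of at least 7. With a male limit of 0.2 it was 89 and with a median of at least 5 it was 168. After normalization (quantiles of all arrays, quantiles by sex, centring) it was 121, 125 and 141, with 99, 99 and 122 members kept, and with dim values raised to the 5th percentile it was 137, with 132 kept. The median female difference of the 133 members lay between 1.61 and 2.21 under the 10 alternatives. Its direction could not reverse when a female array was left out, since the conditions hold the regimes apart in every member. The kept direction is therefore no support for the difference. The 39 calls higher in males became 37 to 44 under the 21 alternatives. The 41 calls higher in females became 36 to 48, except 16 without the dimmest 25% of transcripts, an alternative that tests fewer members, and 24 with a size of at least 2. The replicate block by population gave 45 higher in females and 39 higher in males as a fixed term, and 42 and 39 as a random one, and all 41 and 39 calls were among them. The sex difference of each of the 7 named transcripts kept its direction and call under each alternative that could be fitted; FBtr0085956 was not tested without the dimmest 25%. Leaving out single female arrays for the named transcripts was added after the data were seen. Monogamy female 1 moved rdx and polygamy female 2 moved FBtr0080802 as given above. Arrays carry no detection calls, so dim values have no known floor.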
